A study of Arabidopsis thaliana with 54 samples.

Results

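The weakly rhythmic genes higher in short days are 32 nuclear genes of Arabidopsis thaliana whose transcript level stayed within a daily range of 2 times and lay higher in short days (SD) than in long days (LD) at each time of harvest. They were chosen by measured values. Counts of each library were divided by the library total without spike-ins and multiplied by 1000000 to give CPM, and the replicates of each group were averaged. A gene was selected on a mean of at least 30 CPM, on a highest group mean below 2 times the lowest within each photoperiod, and on an SD mean above the LD mean at all 6 times. Of 32548 genes on chromosomes 1 to 5, 2806 passed the level, 696 of these passed the daily range, and 32 of these passed the SD to LD condition. The rule would have kept up to 100 genes, so none was dropped at its last step. The largest daily ratio of a member was 1.86 at the median and ranged from 1.32 to 2.00, which in most members is wider than their SD to LD difference, and weakly rhythmic stands only for the limit of the rule. The opposite pattern, LD above SD at all 6 times, was met by 43 of the 696.

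The libraries came from whole seedlings of the Columbia 0 accession, without transgene or mutation, aged 12 days according to the labels. Every plant was raised for 10 days in equinox light (EQ, 12 h light to 12 h dark) at 22 °C and 130 µmol of light per m2 per s. It then spent 48 h in SD (8 h light to 16 h dark), EQ or LD (16 h light to 8 h dark) before harvest. Harvests were 4 h apart at 6 zeitgeber times (ZT, hours after dawn), with 3 replicates each, labelled A, B and C, which gave 54 libraries and 18 per photoperiod. According to the study's methods a replicate is a pool of seedlings from a plate, so p-values measure the spread between pools. The labels place ZT00 in the dark in all photoperiods, and at ZT12 and ZT16 the SD seedlings were in the dark while the LD seedlings were in the light. Whole seedlings mix cell types, and a lower share of a cell type and less RNA per cell cannot be told apart in these data.

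Photoperiod is read by plants through the interplay of the circadian clock with light, and also through the length of the daily supply of sugars from photosynthesis. Most transcripts known for responding to photoperiod have a strong daily rhythm, such as clock outputs and flowering regulators. The genes here were chosen for a limited daily range, and their annotated roles are mixed. They include regulators of defence and of protein turnover (WRKY33, PUB23), transcription factors of the NAC and AP2/ERF families (NAC1, CRF6), a splicing factor (RS41), membrane traffic and transport genes (RABA1f, OPT1, NHX5) and chloroplast genes (CAC2, ALB3). RefSeq annotates 22 members as protein-coding and 10 as long non-coding RNA (lncRNA), or 31.25%, beside 26.6% of the 696 genes past the daily range limit. Chromosome 2 carried 9 members, chromosome 5 also 9, chromosome 1 carried 7, chromosome 3 carried 4 and chromosome 4 carried 3.

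Promoter letters are shown for 4 members. WRKY33 and PUB23 are among the 4 largest SD to LD ratios. WRKY33, CRF6 and AT2G42365 hold the motif whose share stood farthest above that of the other genes. AT5G09175 and CAC2 also rank above PUB23 and are not shown. Of the motifs named below, AT5G09175 held none and CAC2 only a site II element. The sequences are the 250 bases before the annotated start in RefSeq TAIR10.1, 5′ to 3′ on the gene's strand, with matches to the motifs named below in capitals. WRKY33 lies on the + strand and its window is chr2:16107985-16108234. PUB23 lies on the - strand, with chr2:15084560-15084809. CRF6 lies on the + strand, with chr3:22804748-22804997. The lncRNA AT2G42365 lies on the - strand, with chr2:17645999-17646248.
WRKY33: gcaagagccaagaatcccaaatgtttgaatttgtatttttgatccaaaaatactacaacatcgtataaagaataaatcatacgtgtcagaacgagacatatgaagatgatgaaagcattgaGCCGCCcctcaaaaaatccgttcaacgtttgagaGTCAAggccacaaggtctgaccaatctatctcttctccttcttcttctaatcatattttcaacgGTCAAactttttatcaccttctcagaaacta
PUB23: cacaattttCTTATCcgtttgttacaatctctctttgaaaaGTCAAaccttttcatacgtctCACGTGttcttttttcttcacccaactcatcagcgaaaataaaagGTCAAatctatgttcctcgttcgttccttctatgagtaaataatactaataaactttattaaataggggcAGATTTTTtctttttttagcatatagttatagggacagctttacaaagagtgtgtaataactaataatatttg
CRF6: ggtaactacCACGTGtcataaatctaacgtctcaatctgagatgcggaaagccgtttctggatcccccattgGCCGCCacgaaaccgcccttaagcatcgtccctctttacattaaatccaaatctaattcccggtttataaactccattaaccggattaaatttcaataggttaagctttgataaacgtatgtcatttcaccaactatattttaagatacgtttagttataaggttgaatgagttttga
AT2G42365: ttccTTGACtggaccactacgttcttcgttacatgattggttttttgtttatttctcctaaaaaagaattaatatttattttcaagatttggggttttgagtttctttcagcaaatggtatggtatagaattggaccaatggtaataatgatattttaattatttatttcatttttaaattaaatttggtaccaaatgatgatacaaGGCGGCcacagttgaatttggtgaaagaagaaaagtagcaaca

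In WRKY33 the capitals mark GCCGCC, the GCC-box that AP2/ERF factors bind, at 129 to 124 bases before the start, and TTGAC, the core of the W-box that WRKY factors bind, read on the other strand as GTCAA. CRF6, itself an AP2/ERF gene, held a G-box (CACGTG) at 241 to 236 and a GCC-box at 178 to 173 bases before its start. AT2G42365 held a GCC-box on the other strand (GGCGGC) at 43 to 38 and a W-box core at 246 to 242. PUB23 held no GCC-box in this window. Its capitals mark a G-box, a pair of W-box cores, the I-box core GATAAG read as CTTATC and the CCA1-binding site AAAAATCT read as AGATTTTT. These 3 GCC-box promoters are 9.38% of the 32 members, beside 2.87% of the 696 genes, 2.49% of the 2806 and 1.90% of all genes, in windows of the same length searched on both strands. The G-box was in 6.25% of members and 4.45% of the 696, and the evening element (AAATATCT) in 6.25% and 4.60%. The W-box core, searched after the values of WRKY33 had been seen, was in 46.9% of members and 44.8% of the 696. The site II element (TGGGCC) was in 6.25% of members against 11.4%, the I-box core in 6.25% against 12.6%, the CCA1-binding site in 3.12% against 5.32% and the telo-box (AAACCCTA) in 3.12% against 3.74%. None of these motifs contains another. A match is a run of letters and not a measured binding site.

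Library totals without spike-ins ranged from 2430049 to 4124570 counts. A single locus, AT2G08665, took 0.660% to 21.8% of a library, with medians of 16.2% in the light and 5.41% in the dark of SD, 17.4% and 3.46% in EQ, and 13.5% and 2.87% in LD. CPM of all other genes falls where this share rises, so tests below use TMM normalization, a scaling by the trimmed mean of gene ratios, while CPM describes levels. Marker genes of green leaf cells summed to 705 to 2517 CPM per library and 4 of 8 (RBCS1A, CA1, RCA and PSAD-1) were called lower in SD than in LD. The rest were not called, with log2 differences of -0.19 in PSBO1, -0.06 in GAPA, 0.08 in LHCB1.1 and 0.22 in LHCA1. Root markers summed to 1.02 to 34.3 CPM with 2 of 10 at 0 in all libraries, guard cell and epidermis markers to 2.43 to 53.5 CPM with PDF1 lower in SD, and vascular and meristem markers to 0 to 17.1 CPM with 1 of 6 at 0 in all libraries. Whether the 4 green leaf markers called lower in SD have a part in the members' levels was not tested.

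The SD to LD ratios that follow describe the values that selected the genes and carry no test. Over the 6 times the median log2 ratio of mean CPM was 0.37 among the members, a fold of 1.29, with a range of 1.13-fold to 1.66-fold. The median over the 696 genes was -0.04. By time of harvest the members' median log2 ratio was 0.25 at ZT00, 0.29 at ZT04, 0.26 at ZT08, 0.40 at ZT12, 0.37 at ZT16 and 0.29 at ZT20. The medians of the 696 genes at those times were -0.17, 0.03, 0.18, -0.08, -0.09 and -0.08. The single largest ratio of a member fell at ZT16 in 11 members, at ZT12 in 7, at ZT04 in 6, at ZT20 in 4, at ZT08 in 3 and at ZT00 in 1. Over the 4 times with the same light state in SD and LD the members' median was 0.30, and over ZT12 and ZT16, dark in SD and light in LD, it was 0.46. The ratio was larger over ZT12 and ZT16 in 22 of 32 members.

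**Figure D1:**
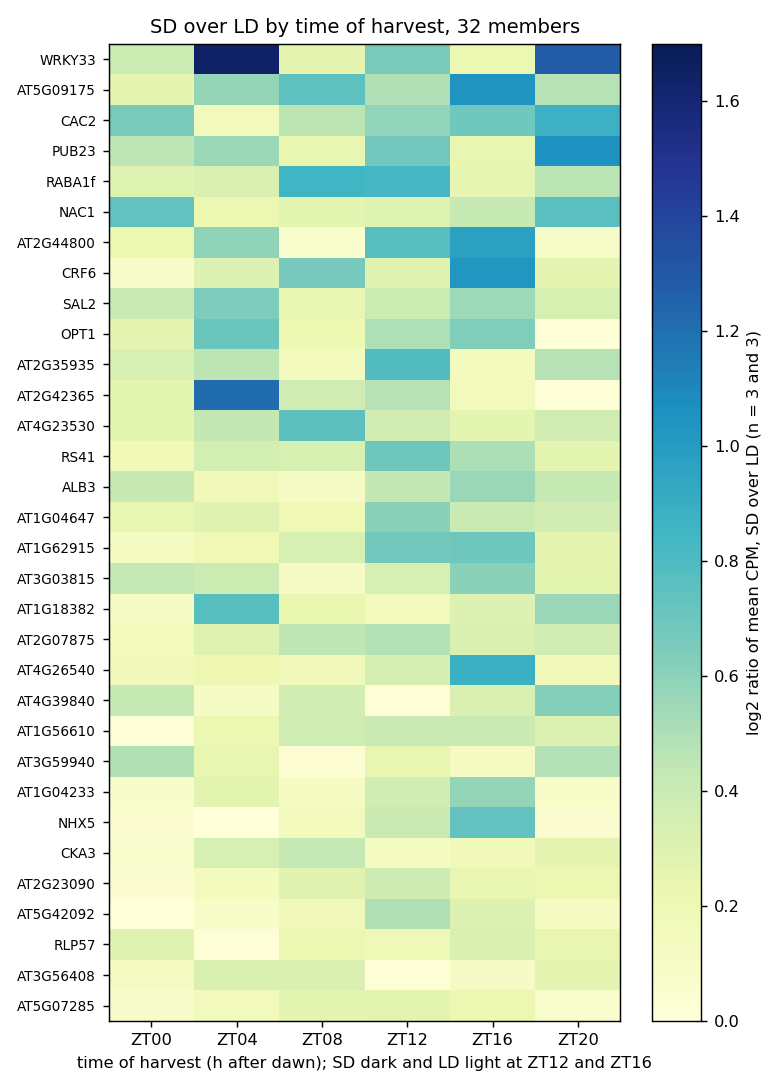
The log2 ratio of mean CPM in SD over LD (3 libraries each) is shown by colour for the 32 members (rows, from the largest mean ratio down) at 6 times of harvest (columns, hours after dawn). All cells are above 0, as the choice requires, and the members' median is highest at ZT12 (0.40).

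Single libraries overlapped more than the means. All 3 SD libraries lay above all 3 LD libraries in 83 of the 192 pairs of member and time. By time this held for 7 members at ZT00, 16 at ZT04, 8 at ZT08, 23 at ZT12, 16 at ZT16 and 13 at ZT20. Among the 696 genes it held for 4.31%, 12.9%, 28.6%, 15.9%, 14.7% and 9.05% at those times. Since the rule used these values, nothing is read from the difference, but at ZT08 the 8 members are close to the share of the 696. The SD mean was above the LD mean in each of the replicates A, B and C for all 32 members. The members were chosen on the means of these same replicates, so nothing is read from that count either.

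The 12 largest ratios begin with WRKY33, the lncRNA AT5G09175, CAC2 and PUB23. WRKY33 (AT2G38470, chr2:16108235-16110766), a WRKY factor that Arabidopsis needs for defence against necrotrophic fungi, had the largest ratio. Its 18 libraries in SD ranged from 94.8 to 185 CPM (median 114), those in EQ from 0 to 109 (median 84.0) and those in LD from 0 to 113 (median 85.4). The mean was 127 ± 7.25 CPM in SD (standard deviation over the 3 replicate means), 78.4 ± 13.0 in EQ and 76.6 ± 12.4 in LD, a log2 ratio of 0.73. The gap was widest at ZT04, where the SD libraries gave 130, 161 and 180 CPM and the LD libraries 48.7, 62.6 and 39.9. At ZT16 the log2 ratio was 0.22. The SD and LD libraries did not overlap at 5 of 6 times.

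PUB23 (AT2G35930, chr2:15082855-15084559) encodes a U-box E3 ubiquitin ligase known for damping immune signalling. It ranged from 75.6 to 189 CPM in SD (median 124), from 0 to 183 in EQ (median 105) and from 0 to 138 in LD (median 95.7), with a log2 ratio of 0.53. At ZT12 the SD libraries gave 189, 141 and 166 CPM and the LD libraries 112, 102 and 96.0. AT2G35935, a protein-coding gene on the opposite strand, lies within the span of PUB23 and shares 988 bases with it. It is also a member, with 287, 229 and 259 CPM in SD and 159, 143 and 146 in LD at ZT12 and a log2 ratio of 0.41 over the day. The sources used here do not state that the library kit marks strand, although the alignment used a stranded setting. Which strand the reads of this pair came from was not tested, and both members may rest on the same reads.

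The transcription factors NAC1 and CRF6 differed at other times of the day. NAC1 (AT1G56010), which acts in auxin signalling and lateral root formation, ranged from 74.2 to 149 CPM in SD (median 118), from 49.5 to 150 in EQ (median 86.9) and from 53.3 to 103 in LD (median 83.9). At ZT20 the SD libraries gave 149, 146 and 122 CPM and the LD libraries 69.9, 87.8 and 89.0, and at ZT00 they gave 131, 138 and 124 against 79.8, 59.7 and 97.4. These are the late night and dawn, dark in both photoperiods. CRF6 (AT3G61630), a cytokinin response factor, ranged from 43.0 to 131 CPM in SD (median 78.6), from 42.0 to 98.6 in EQ (median 62.5) and from 33.5 to 94.2 in LD (median 57.1). Its widest gap was at ZT16, with 96.1, 75.6 and 131 CPM in SD and 57.6, 37.7 and 52.8 in LD, while at ZT00 its log2 ratio was 0.08.

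RS41 (AT5G52040, chr5:21130320-21133709), a serine/arginine-rich (SR) protein that acts in pre-mRNA splicing, lay apart between SD and LD at most times. It ranged from 223 to 467 CPM in SD (median 354), from 186 to 406 in EQ (median 276) and from 182 to 363 in LD (median 256), a log2 ratio of 0.39. At ZT12 the SD libraries gave 434, 317 and 414 CPM and the LD libraries 223, 236 and 260. The SD and LD libraries did not overlap at 5 of 6 times. AT1G56610, annotated as an FBD-like gene, was the other member beside WRKY33 and RS41 without overlap at 5 times, at a lower log2 ratio of 0.29.

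**Figure D2:**
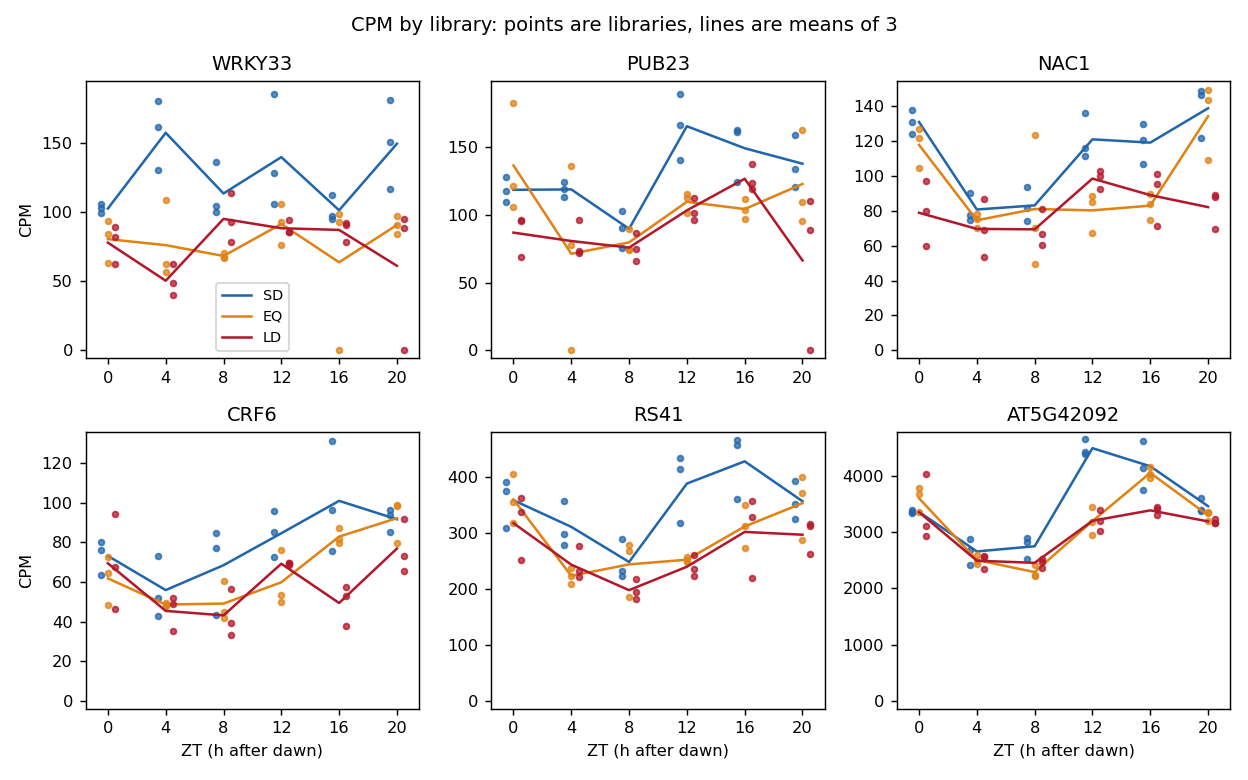
CPM of single libraries (points) and means of 3 (lines) against hours after dawn in SD, EQ and LD for WRKY33, PUB23, NAC1, CRF6, RS41 and AT5G42092. The 2 points at 0 for WRKY33 and the 2 for PUB23 lie in EQ and LD, and the widest gap of WRKY33 is at ZT04.

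Among the genes of metabolism and transport, CAC2 (AT5G35360) encodes the biotin carboxylase subunit of plastid acetyl-CoA carboxylase, the enzyme that starts fatty acid synthesis. It ranged from 20.0 to 65.1 CPM in SD (median 41.8), from 24.4 to 57.0 in EQ (median 35.4) and from 0 to 60.1 in LD (median 28.8). RABA1f (AT5G60860), a small GTPase of membrane traffic, ranged from 20.3 to 82.3 CPM in SD (median 51.3), from 0 to 62.4 in EQ (median 40.0) and from 0 to 48.9 in LD (median 36.0). The groups overlap widely in both genes. OPT1 (AT5G55930), an oligopeptide transporter, gave 81.2, 101 and 83.5 CPM in SD and 47.6, 47.4 and 67.4 in LD at ZT04. At ZT20 its log2 ratio was 0.01, so its gap was not steady over the day. RABA1f, OPT1 and WRKY33 each overlap an opposite lncRNA that was called higher in SD, given below. SAL2 (AT5G64000), of the inositol monophosphatase family, gave 85.4, 76.4 and 83.5 CPM in SD and 44.6, 65.4 and 47.3 in LD at ZT04. It shares 2007 bases with the lncRNA AT5G09175 on the opposite strand, also a member. AT5G09175 gave 43.9, 44.7 and 62.0 CPM in SD and 20.4, 19.3 and 33.7 in LD at ZT16. Which strand the reads of this pair came from was not tested either. AT2G44800, annotated as a 2-oxoglutarate and Fe(II)-dependent oxygenase, gave 77.7, 71.0 and 113 CPM in SD and 56.6, 32.2 and 44.2 in LD at ZT16.

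The lncRNA AT2G42365 completes the 12 largest ratios, at 0.39 on the log2 scale. At ZT04 it gave 161, 212 and 132 CPM in SD and 89.2, 24.7 and 105 in LD, with 1 LD library far below the others. Across the 14 members with a mean under 100 CPM the standard deviation of the log2 ratio over the 3 replicates had a median of 0.17, and across the 18 at 100 CPM or more it had a median of 0.10. The largest ratios thus lie among the less deeply counted members, with median log2 ratios of 0.42 and 0.32 in those 2 sets.

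Members at high level had small ratios with tighter replicates. AT5G42092, an lncRNA, was highest at 3218 CPM on average, with 2409 to 4664 CPM in SD (median 3385), 2227 to 4162 in EQ (median 3270) and 2346 to 4028 in LD (median 3134). At ZT12 its SD libraries gave 4420, 4394 and 4664 CPM and its LD libraries 3016, 3389 and 3203, while at ZT00 its log2 ratio rounded to 0.00. AT2G23090, which encodes a small protein of the SERF family, gave 2959, 3016 and 3173 CPM in SD and 2082, 2742 and 2154 in LD at ZT12, a log2 ratio of 0.39 there and 0.22 over the day. The lncRNA AT3G56408, at a mean of 1395 CPM, had a log2 ratio of 0.18 over the day and 0.01 at ZT12. Next in level were the lncRNA AT5G07285 at 361 CPM, AT4G39840 at 355 CPM and RS41 at 302 CPM. AT5G07285 differed least between replicates, with log2 ratios of 0.17, 0.17 and 0.18. CPM compares a gene between libraries and is not per length, so it does not rank these genes against each other. Per kilobase of annotated exon AT2G23090 had 4222 CPM, AT5G42092 1702 and AT2G07875 918, and ALB3, the insertase of thylakoid light-harvesting proteins, had 12.3.

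The other members had log2 ratios of 0.17 to 0.39. They include AT4G26540, a leucine-rich repeat receptor-like kinase, with 238, 242 and 245 CPM in SD and 137, 126 and 131 in LD at ZT16 and log2 ratios of 0.17 to 0.35 at the other times. NHX5 (AT1G54370), an endosomal sodium and potassium antiporter, was also widest apart at ZT16, with 201, 203 and 207 CPM in SD and 130, 130 and 106 in LD at ZT16 and a log2 ratio of 0.00 at ZT04. CKA3 (AT2G23080), a catalytic subunit of casein kinase 2, and RLP57 (AT5G65830), a receptor-like protein, had 0.22 and 0.20. AT3G59940, the F-box gene KMD4 that targets enzymes and regulators for breakdown, ranged from 77.1 to 154 CPM in SD (median 115) and from 58.6 to 134 in LD (median 92.5). Its SD libraries stood clear of the LD libraries at 1 of 6 times. NHX5, CKA3, RLP57, AT4G26540, ALB3 and KMD4 were picked for their annotated function after their values were seen.

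Values of 0 counts, 9 in all, touch the top of the list. Of the members, 4 had a library at 0 counts where the 2 other replicates of the same group had 94 to 449 counts. WRKY33 was at 0 in EQ ZT16 replicate A and LD ZT20 replicate A, CAC2 in LD ZT00 and LD ZT20 replicate A, PUB23 in EQ ZT04 and LD ZT20 replicate C, and RABA1f in EQ ZT00 and EQ ZT16 replicate C and in LD ZT08 replicate B. No SD value of a member was at 0, against 4 in EQ and 5 in LD, out of 1728 member values. Such zeros are common in the table, in 532 of the 2806 genes (19.0%), with 1841 values at 0 in SD, 1798 in EQ and 1720 in LD. Once these zeros were set aside the log2 ratios were 0.64 for WRKY33, 0.35 for CAC2, 0.44 for PUB23 and 0.42 for RABA1f, and CAC2 was no longer chosen. WRKY33 still had the largest ratio, and 31 of the 32 members were still among the 33 genes chosen that way. What produced the zeros was not tested.

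The choice rests on thresholds that pass through a continuous spread. The member nearest the daily range limit was AT4G26540, with a highest group mean 1.999 times its lowest, and the nearest gene outside was AT1G06790 at 2.01 times. The smallest SD to LD log2 ratio at a time was 0.0013 in NHX5, and just outside AAE2 had -0.0066. The lowest mean was 30.1 CPM in ALB3, and AT4G08505 at 29.1 CPM fell outside. The choice also moved with the scaling. With TMM-normalized CPM 41 genes were chosen, among them 19 of the 32, and with scaling by the ERCC spike-ins none was chosen. Spike-in counts varied between libraries, from 0.0553% to 0.268% of the library total. In the edgeR fit the members' median log2 SD to LD difference was 0.30 with spike-in totals, against 0.34 with TMM. That fit called 0 members higher in SD, against 24 with TMM. Which condition of the rule emptied the choice was not tested. A daily range limit of 1.5 kept 1 member and a limit of 3 kept all 32 among 84 genes.

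Replicates that took no part in a choice were used to see whether the SD to LD gap recurred. The rule was applied to 2 replicates and the gene's mean log2 ratio was read in the third. With A left out 15 genes were chosen, of which 10 are among the 32, and 15 of 15 had SD above LD in A, with a median log2 ratio of 0.32. With B left out 18 of 20 did, at a median of 0.17, and with C left out 23 of 27 did, at 0.30. Among genes past the level and range steps on the same 2 replicates, 42.7%, 44.6% and 41.2% had SD above LD in the replicate left out. Over the 3 rounds 56 of 62 readings (90.3%), from 51 genes, had SD above LD. The genes are not independent samples and the libraries of each letter are shared by all of them, so no p is given. Genes from 2 replicates overlapped the 32 only in part, with 10, 11 and 15 shared.

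**Figure D3:**
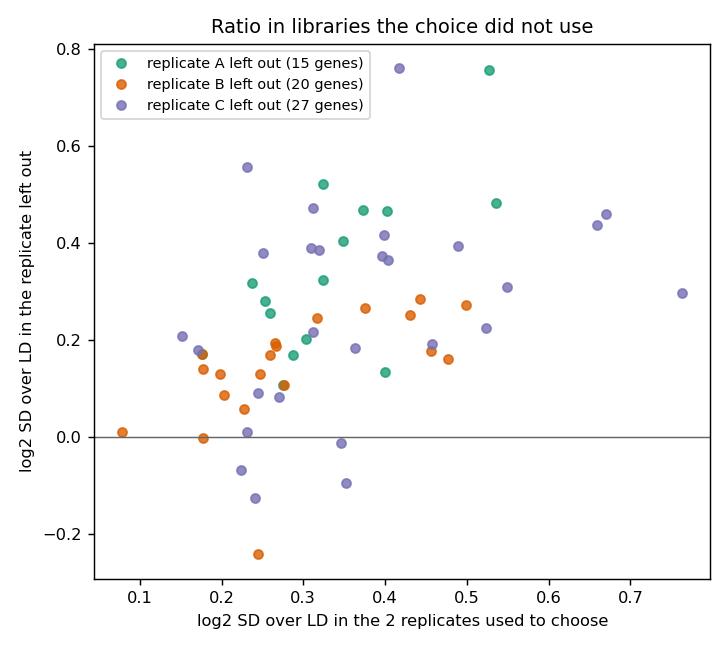
Each point is a gene chosen on 2 replicates, with its mean log2 SD over LD in those (x axis) and in the replicate left out (y axis), coloured by the replicate left out. Of 62 points 56 lie above 0 on the y axis, 15 of 15 for A, 18 of 20 for B and 23 of 27 for C.

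The rule used EQ only through the limit on its daily range and its part in the mean CPM, and EQ was compared with the midpoint of SD and LD. That midpoint is made of SD and LD values that the rule did use. The members' shares and medians in this comparison are thus a description. Most members lay nearer to LD. The EQ mean was between SD and LD in 27 members, below LD in 5 and above SD in none. The choice of genes with SD above LD favours these counts, so nothing is read from them. The EQ mean was below the midpoint of SD and LD in 27 of 32 (84.4%), beside 48.3% of the 696 genes. The 696 were under no SD to LD condition, so nothing is read from this difference. In edgeR's quasi-likelihood test over 14115 genes, with p adjusted by Benjamini-Hochberg, the median log2 difference of EQ from the midpoint was -0.08 among members and -0.00088 over all genes, and 28 of 32 members were below 0. The lncRNA AT2G07875 (chr2:9829803-9830074) was lower in EQ, at 210 CPM against a midpoint of 269, a log2 difference of -0.39 with a standard error (SE) of 0.083 and an adjusted p of 0.0465 in the quasi-likelihood test. Its libraries ranged from 217 to 438 CPM in SD, from 116 to 312 in EQ and from 153 to 365 in LD. Among all genes 0.0567% were called lower in this comparison, and 8 members had an unadjusted p under 0.05. The call of AT2G07875 was kept in 2 of 10 alternative settings, with adjusted p from 0.000381 to 0.449. All 272 of its bases lie within the span of AT2G23090 on the opposite strand, which had 2550 CPM, and 24 of them overlap its exons.

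Within a photoperiod the light and dark harvests were compared next. The rule limited the size of the daily range, and so the differences that could be called, but within EQ it did not limit their direction. For SD and LD it also required SD above LD at each time, including times dark in SD and light in LD. The light to dark differences of SD and LD are thus not free of the choice. All genes, whose shares are given beside the members, were under no such limit. The calls were not compared with those of other genes past the daily range limit. In EQ, with ZT04, ZT08 and ZT12 in the light, 8 of 32 members were lower in the light and none was higher, while 8.97% of all genes were called lower and 7.98% higher. The members' median log2 difference was -0.21, against 0.03 over all genes, and 25 of 32 were below 0. The change from light to dark differed between EQ and LD for 1 member, AT4G39840, in a comparison that called 0.156% of all genes lower in EQ. AT4G39840 had 281 CPM in the light and 421 in the dark (log2 difference -0.38, SE 0.076, adjusted p 0.00022 in the quasi-likelihood test). AT1G56610 had 125 and 189 CPM (-0.39, adjusted p 0.000248 in that test). AT5G42092 had 2664 and 3652 CPM (-0.24, adjusted p 0.00259) and AT4G26540 had 150 and 211 CPM (-0.27, adjusted p 0.00304), by the same edgeR test. AT2G44800, RS41, NHX5 and AT5G07285 were also called lower in the light. The CPM values are lowered in the light by the larger share of AT2G08665 there, whereas the log2 differences are after TMM.

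In SD, with ZT04 and ZT08 in the light, 5 members were lower in the light and none higher, beside 7.98% and 10.4% of all genes. NHX5 had 112 CPM in the light and 172 in the dark (log2 difference -0.39, SE 0.076, adjusted p 0.000154 in the edgeR test). NAC1 had 82.0 and 128 CPM (-0.41), and AT2G44800 (-0.45), AT4G39840 (-0.28) and AT5G42092 (-0.28) were lower too. In LD, with ZT04 to ZT16 in the light, 3 members were higher in the light and 3 lower, beside 5.66% and 7.70% of all genes. The higher ones were KMD4 (AT3G59940, 101 against 79.9 CPM, log2 difference 0.52), AT1G18382 (0.32) and AT3G56408 (0.29). The lower ones were AT1G62915 (-0.42), AT4G26540 (-0.23) and NHX5 (-0.22). NHX5 was called lower in the light in SD, EQ and LD, a call kept in 10 of 11 alternative settings in SD, in 4 of 11 in EQ and in 2 of 11 in LD.

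These calls depended on the scaling. With library totals in place of TMM, which moved the median log2 difference of all genes to -0.17 in EQ, -0.17 in SD and -0.18 in LD, 21 members were called in EQ and 16 in SD, all lower in the light, and in LD 9 were lower and 0 higher. With DESeq2 size factors 3 members were higher and 0 lower in the light of LD, so the split of 3 and 3 there turned with the scaling. With scaling by the spike-ins, which moved the median over all genes to 0.19 in EQ and 0.12 in SD, none was called in any photoperiod. Leaving out replicate A, B or C lowered the count to 2, 1 and 4 in EQ, to 2, 2 and 3 in SD, and to 2, 3 and 0 in LD.

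**Figure D4:**
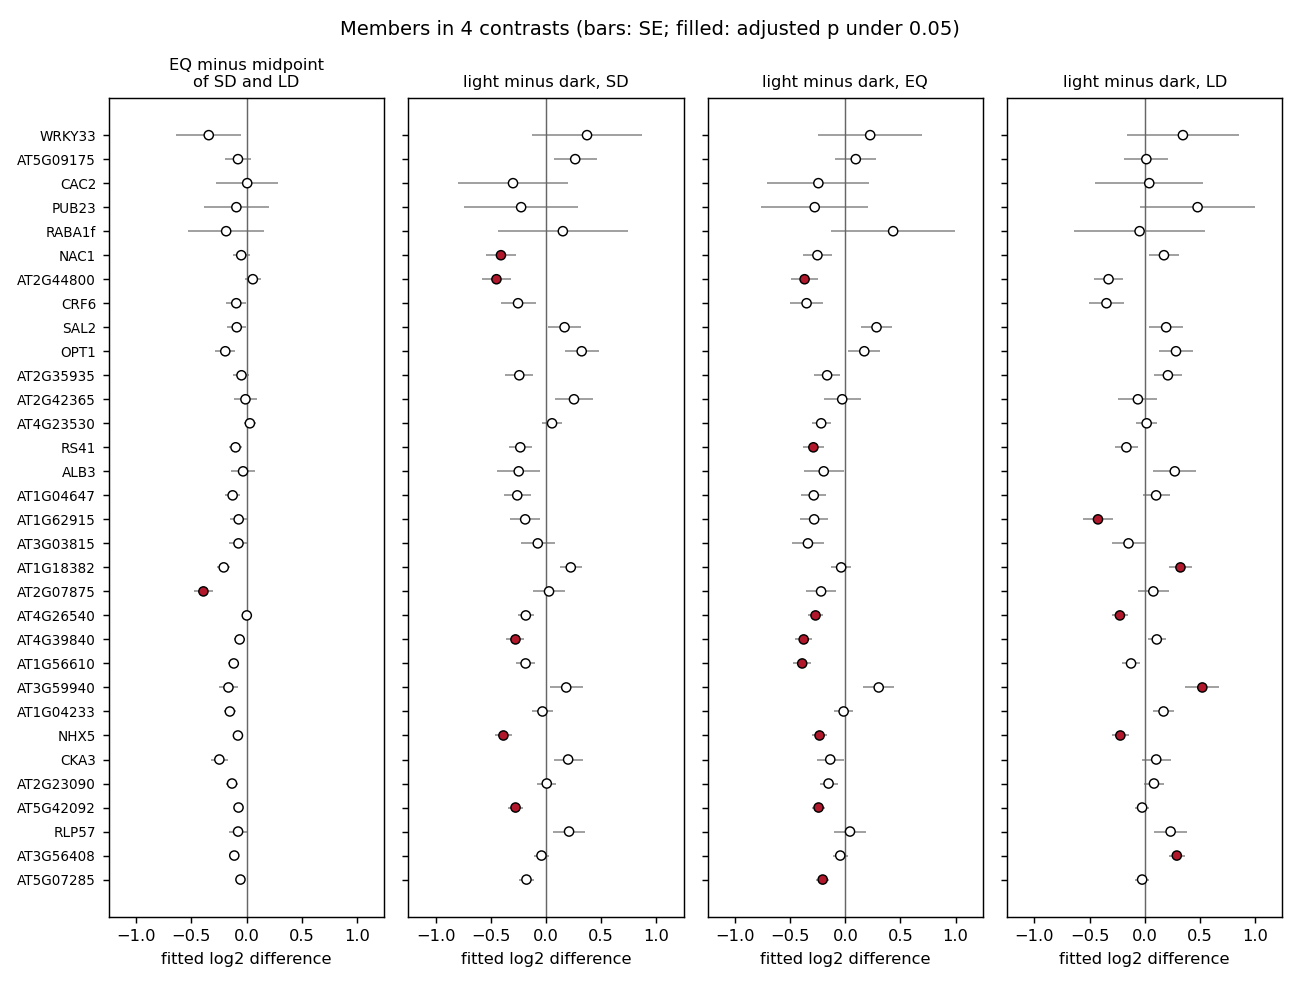
Log2 differences of the members (points) in edgeR's fit of 54 libraries for EQ minus the midpoint of SD and LD and for light minus dark in SD, EQ and LD (panels, left to right), with bars of 1 SE and filled points for an adjusted p under 0.05. The members' medians are -0.08, -0.13, -0.21 and 0.08.

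The highest mean CPM of a member fell mostly between ZT12 and ZT00. In SD it fell at ZT16 in 14 members, at ZT12 in 9, at ZT04 in 4, at ZT20 in 3 and at ZT00 in 2. In EQ it fell at ZT16 in 12 and at ZT00 in 11. In LD it fell at ZT16 in 10, at ZT20 in 8 and at ZT12 in 7. ZT16 is dark in SD and EQ and light in LD. With a daily range below 2 times, single peaks are set by small differences, and these counts carry no test. They rest on CPM without TMM, which raises values more where its factor is lower. The median factor was 0.90 in the light and 1.04 in the dark of SD. It was 0.92 and 1.09 in EQ, and 0.93 and 1.07 in LD. Peaks after TMM, and peaks of other genes past the daily range limit, were not counted. Whether the members prefer these times was thus not tested.

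An overlapping gene on the opposite strand was present for 28 of the 32 members (87.5%), beside 94.1% of the 696 genes, 86.0% of the 2806 and 27.6% of all genes. The members' share was near that of the genes they were chosen from. CRF6, ALB3, AT1G62915 and RLP57 had none. Genes that most cells use can be low in this table, and 14 of 15 tested subunits of the 26S proteasome were under 10 CPM. Whether the handling of strand shaped the level of any gene, with or without an opposite gene, was not tested. In 4 pairs both genes are members. These are PUB23 with AT2G35935, SAL2 with AT5G09175, AT2G23090 with AT2G07875 over 272 bases (24 in exons of both) and AT2G23090 with CKA3 over 88 bases. These pairs hold 7 members.

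Of 31 opposite genes that are not members, 30 were tested in the same edgeR fit, and 9 were higher in SD than in LD and 2 lower, beside 5.78% and 6.23% of all genes. The same contrast called 24 of the 32 members higher in SD, which follows from their choice. RS41 overlaps AT5G52045, which averaged 313 CPM in SD, against 266 in EQ and 226 in LD (log2 difference 0.45, SE 0.063, adjusted p 1.18e-06 in the quasi-likelihood test). AT4G23530, a ROH1-like gene, gave 174, 167 and 167 CPM in SD and 91.4, 112 and 97.4 in LD at ZT08, and its opposite lncRNA AT4G07130 had 162 CPM in SD and 118 in LD (0.44, adjusted p 1.39e-05). KMD4 overlaps the lncRNA AT3G09275 over 1389 bases, which averaged 4058 CPM in SD, against 2693 in EQ and 2407 in LD, far above KMD4 itself at 113, 93.8 and 94.3 (0.72, adjusted p 3.67e-08). In these 3 loci the genes on both strands were higher in SD. So were AT5G08980 opposite RABA1f (62.2 CPM, above RABA1f at 41.3, log2 difference 0.39) and AT5G08425 opposite OPT1 (52.4 CPM, 0.53). AT2G08965 opposite WRKY33 (9.58 CPM, 0.52) was called higher too. The rest of the 9 were AT4G23540 opposite AT4G23530, AT1G08315 opposite AT1G04647 and AT1G18390 opposite AT1G18382. The alignment used a stranded setting, and which strand the reads of each gene came from was not tested.

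At 2 loci the opposite gene was called lower in SD, while the member was higher by its choice. AT4G26540 was higher in SD while its opposite lncRNA AT4G26542, which overlaps 2764 bases, averaged 925 CPM in SD, against 1221 in EQ and 1285 in LD (log2 difference -0.51, adjusted p 3.13e-06 in the edgeR test). AT4G39840 was higher in SD while AT4G39838 had 696, 873 and 852 CPM (-0.30, adjusted p 0.000585). The lncRNA AT5G42092 had 3218 CPM and the protein-coding gene across from it, AT5G42090, 22.4 CPM, with 23.9 in SD and 20.0 in LD, the same direction as the lncRNA but not called. The lncRNA AT3G03815 lies within ABF4, a factor of abscisic acid signalling, which was also higher in SD by its mean, at 288 CPM against 206 in LD, with an SE of 0.36 on the log2 scale and was not called.

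**Figure D5:**
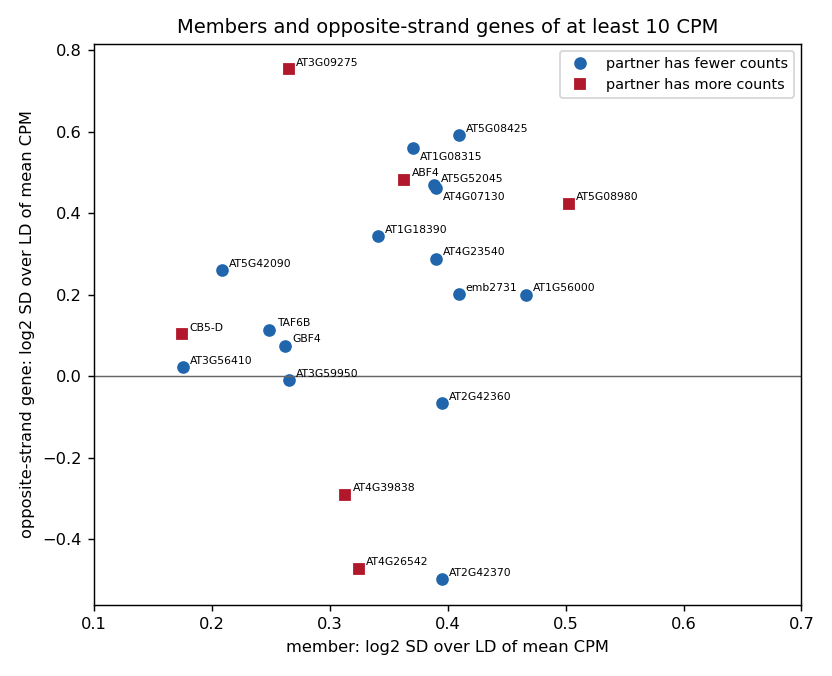
Log2 SD over LD of mean CPM of each member (x axis) and of its overlapping gene on the opposite strand with at least 10 CPM (y axis), as squares where the opposite gene has more counts than the member. AT2G42370, AT4G26542, AT4G39838, AT2G42360 and AT3G59950 lie below 0, while AT3G09275 opposite KMD4 is highest at 0.75.

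Pathways picked from general knowledge of long nights and low sugar supply, and not from the members, were read from lists of genes. The lists were chosen with earlier results of these data known. From these libraries the study had reported terms for hypoxia, branched-chain amino acid breakdown and the spliceosome as induced in SD. The counts below thus describe the lists and are not independent support. The SD to LD difference over the day came from the same edgeR fit, in which 5.78% of all genes were higher and 6.23% lower. Many genes of these lists had few counts and an imprecise fit. Of 16 low energy and dark-induced genes 7 were higher in SD, among them SEN1 (31.7 CPM in SD, 5.98 in LD, log2 difference 2.68) and ASN1 (2.96), and none was lower. Of 13 genes of branched-chain amino acid breakdown 4 were higher (BCAT2, BCKDH-E1A1, IVD and MCCA) and none was lower. The SE was above 1 on the log2 scale in 4 of the 16 and in 6 of the 13. Of 25 SR proteins and splicing factors 2 were higher and none lower. The first is RS41, whose direction follows from its choice, which leaves RS2Z33 (371 CPM in SD, 284 in LD, log2 difference 0.36, adjusted p 5.62e-05 in the edgeR test) among 24 others, a share near that of all genes. Autophagy had 1 of 14 higher (ATG4A) and 1 lower (ATG8A), and the hypoxia response 1 of 8 higher (HRA1), counts too small to set beside that share. Of 15 genes of the 26S proteasome, the machine that degrades targets of E3 ligases, none was called by edgeR and 1 had an unadjusted p under 0.05, but 6 had an SE above 1, so the list could not be read. RS41 was the one member in any of these lists.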

How the data were processed

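The deposited values are whole-number counts per gene, which the authors made by trimming reads with Trimmomatic 0.39, aligning them with HISAT2 2.1.0 under a stranded setting to TAIR10 with spike-in sequences, and assigning them with StringTie 2.1.2 and prepDE, without normalization. All columns matched a sample by name, leaving 0 unmapped, and groups follow the sample labels. The table lists 32833 gene and 92 ERCC identifiers, and names, biotypes and overlaps come from RefSeq TAIR10.1.

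Tests used edgeR 4.0.16 in R 4.3.3, with the quasi-likelihood fit of 54 libraries to 18 group means, TMM and filterByExpr at a minimum count of 10, which left 14115 genes. P-values were adjusted by Benjamini-Hochberg, with a threshold of 0.05, over all genes. DESeq2 1.42.0, other scalings and filters, a replicate block and each replicate left out were alternatives. Rules and ratios were computed in Python 3.11.15. In counts simulated for 14115 genes, the changed genes were drawn only from those with a mean of at least 100 counts. The EQ minus midpoint test recovered 17, 39, 40 and 44 of 50 such genes changed 1.25, 1.5, 2 and 3 times. It called 47 of 13715 unchanged genes, 4 of them among the 2413 with at least 100 counts. The light minus dark test in EQ recovered 1, 24, 32 and 46 and called 9 unchanged genes, 4 of them among the 2413. Recovery of genes under 100 counts was not simulated.

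The members and the gene lists were chosen with earlier results of these data known. Genes named are the 12 largest SD to LD ratios, the 6 highest means, members called in the tests of EQ against the midpoint and of light against dark in EQ, members in a list and members that overlap another member, and the values on either side of each threshold stand in for the last ranks. Further members called in SD or LD, those with an opposite gene given in the text and those picked for their function were named after their values were seen. Depth limits precision most for members near 30 CPM, and intervals cover the spread between pools only.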

Additional observations from a re-analysis of the deposited data

Results flagged for a closer look

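The light to dark difference of AT4G39840 differed between EQ and LD. In EQ it had 281 CPM in the light and 421 in the dark, and in LD 316 and 323. The interaction in edgeR's quasi-likelihood fit was -0.49 on the log2 scale (adjusted p 0.0316), beside 0.156% of all genes called lower in that comparison. It was called in 5 of 11 alternative settings, with adjusted p from 0.000781 to 0.940. Its opposite-strand gene AT4G39838 overlaps all of its exons, and the part of that gene's reads in the difference was not tested.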

How the results depend on the processing

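The number of members lower in EQ than the midpoint was 1. It was 0 with DESeq2 size factors, library totals, spike-in totals, no filter or the replicate block, 2 in DESeq2's Wald test, and 0 to 0 with a replicate left out. The calls between light and dark numbered 8 in EQ, 5 in SD and 6 in LD. In EQ they were 4 with DESeq2 size factors, 21 with library totals, 0 with spike-in totals, 4 with no filter, 4 without ZT00 and 1 to 4 with a replicate left out. In SD they were 16 with library totals, 0 with spike-in totals, 3 with no filter and 2 to 3 with a replicate left out. In LD, 3 higher and 3 lower, they were 9 with library totals (0 higher), 3 with DESeq2 size factors (0 lower), 0 with spike-in totals, 3 with no filter, 2 without ZT00 and 0 to 3 with a replicate left out. Over all genes 1696 were called between SD and LD, against 950 with spike-in totals and 889 to 1190 with a replicate left out. The lists held 16 calls, against 10 with spike-in totals and 7 to 11 with a replicate left out. The rule kept 19 members with TMM-normalized CPM, 0 with spike-in scaling, 1 with a range limit of 1.5 and 10 to 15 with a replicate left out. The members' median log2 ratio was 0.30 over the times with the same light state and 0.46 over ZT12 and ZT16, settings chosen after seeing the data. Of the readings in a replicate left out, 93.6% (103 of 110) had SD above LD with TMM-normalized CPM, against 90.3% (56 of 62) with CPM. Among genes without an opposite-strand gene the share was 100% (6 of 6) with CPM and 90% (9 of 10) with TMM-normalized CPM. Of the alternative values for single members that were called, 123 kept the call and 107 lost it, and none reversed. The cause was not tested.

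The letters A, B and C did not pair the libraries. Of 459 pairs with the same letter, 0 had a correlation of deviations over 0.1 (median 0.002), and 23 of 54 libraries correlated best with their own letter. The replicate block left the calls between light and dark at 8, 5 and 6.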
